A study of Mus musculus with 6 samples.

Results

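The genes described here are Myc, 2 enzymes of polyamine synthesis that Myc is known to drive, and genes whose products build the ribosome in the nucleolus. The list held 44 genes, written out by name, and 42 of them had a probe set annotated to that gene alone, out of 12393 genes on the arrays. Dkc1 and Nob1 had no such probe set and are not analysed here. Of several probe sets of a gene, the one with the highest mean log2 intensity stood for it, and the genes lie on 17 chromosomes.

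RNA came from mouse marrow cells that carried a lentivirus with the short hairpin RNA Rad21 shRNA1, with Rad21 shRNA2, or with no hairpin (Empty Vector), on 2 arrays for each of the 3 groups. Rad21 is a subunit of cohesin, the ring that holds sister chromatids together and shapes chromatin loops. All groups shared the rest of the procedure. Lineage-depleted cells of C57/BL6 mice aged 6 to 8 weeks were exposed to virus for 24 h, selected in puromycin at 1 µg/mL, plated live at 10000 cells/mL in methylcellulose with unnamed cytokines, and harvested on day 7. A lentivirus acts in every infected cell type, and the labels do not say that the 2 replicates of a group were separate infections or animals, so the p-values reflect how far these particular arrays scatter, which may be no more than technical error.

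Myc is a transcription factor that binds DNA at E-boxes and raises the output of genes for growth. In the nucleolus, RNA polymerase I copies ribosomal DNA into a long precursor RNA. Small nucleolar ribonucleoproteins (snoRNPs) then mark that precursor for chemical modification, and assembly factors fold, cut and export the small and the large subunit. Proliferating progenitors are known for high activity of this pathway, and it declines as myeloid cells mature.

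Intensities below are on the log2 scale, with replicate 1 before replicate 2, and differences are log2 differences ± the standard error of the limma fit. A gene is said to have risen or fallen only where its Benjamini-Hochberg adjusted p over all 12393 genes was under 0.05. Rad21 itself stood at 30.6% to 43.8% of control (the empty-vector geometric mean) on the 4 shRNA arrays, against 125% and 79.8% on the empty-vector arrays. The difference was -1.47 ± 0.26 (limma adjusted p = 0.0558, n = 4 and 2). Empty-vector replicate 1 stood apart: its Gapdh 3′ control exceeded the 5′ one by 2.42, against -0.078 to 0.017 on the other 5 arrays. The root mean square distance from the group mean was 0.151 for shRNA1, 0.141 for shRNA2 and 0.321 for the empty vector, so every comparison with the empty vector rests on the noisiest pair. The blood-cell markers Ptprc, Spi1, Itgam, Csf1r, Cebpa and Cebpb lay between 8.23 and 12.80 on all arrays, while the median of B cell markers was 4.33 to 4.51. In bulk RNA, fewer cells of a type and less RNA per cell cannot be told apart.

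The canonical E-box, CACGTG, and a variant of it, CACGCG, were searched on both strands in the RefSeq promoter windows of build GRCm38.p6, which run from 250 bases before to 50 bases after a gene's start. Windows were found for 35 of the 42 genes. CACGTG stood in 9 of the 35 (25.7%), against 10.8% of the 9887 tested genes with a window and 8.09% of all 27025 genes with one. CACGCG stood in 11 of the 35 (31.4%), against 17.3% and 10.5%. The sites of CACGTG are shown because it is the canonical E-box, in gene orientation with the motif in capitals.
Imp4, chr1:34439696-34439725, plus strand: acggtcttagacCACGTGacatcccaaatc
Nop2, chr6:125131811-125131840, plus strand: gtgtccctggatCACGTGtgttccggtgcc
Utp18, chr11:93885769-93885798, minus strand: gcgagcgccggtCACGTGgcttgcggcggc
Pes1, chr11:3963965-3963994, plus strand: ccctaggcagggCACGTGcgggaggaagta
Wdr43, chr17:71616220-71616249, plus strand: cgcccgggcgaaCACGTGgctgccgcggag
Nle1, chr11:82908355-82908384, minus strand: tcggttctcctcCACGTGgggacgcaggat
Tsr1, chr11:74898092-74898121, plus strand: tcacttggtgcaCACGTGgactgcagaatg
Utp20, chr10:88826765-88826789, minus strand: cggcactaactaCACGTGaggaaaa
Mybbp1a, chr11:72441355-72441376, plus strand: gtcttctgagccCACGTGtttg

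A match is a description of these letters and not of Myc binding. The 9 genes with CACGTG had a median difference of 0.16 for both shRNAs against the empty vector (-0.11 to 0.75), and the 26 without it had 0.31 (-0.14 to 0.92). Between the shRNAs, the median differences were -0.40 with the motif and -0.38 without it.

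Myc and the 2 polyamine enzymes did not move as a block. Myc had 8.84 and 8.80 with shRNA1 and 8.25 and 9.22 with shRNA2, against 8.48 and 9.09 with the empty vector. The 3 groups overlapped fully, the fitted difference for both shRNAs was -0.0083 ± 0.31 (limma adjusted p = 0.993), and shRNA1 minus shRNA2 was 0.085 ± 0.36 (adjusted p = 0.999). The error for both shRNAs is too large to tell no change in Myc from a difference of 0.66, which Srm below had for both shRNAs. Odc1, ornithine decarboxylase, which makes putrescine in the first step of polyamine synthesis, had 11.37 and 10.42 with shRNA1 and 11.59 and 10.9996 with shRNA2, against 11.97 and 10.45 with the empty vector. On this gene replicate 1 was above replicate 2 in all 3 groups, by more than the groups differed (-0.12 ± 0.49, adjusted p = 0.939).

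Srm, spermidine synthase, separated the shRNAs more than any other gene of the list. It had 9.99 and 9.72 with shRNA1 and 10.75 and 10.61 with shRNA2, against 9.51 and 9.70 with the empty vector. Both shRNA2 arrays lay above all others and the shRNA1 arrays lay close to the empty vector. Srm rose 2.11-fold with shRNA2 (1.08 ± 0.17, limma adjusted p = 0.0387, n = 2 and 2). The difference was 0.25 ± 0.17 with shRNA1 (adjusted p = 0.714) and 0.66 ± 0.15 for both together (adjusted p = 0.102). The test of shRNA1 minus shRNA2 gave -0.83 ± 0.17 (limma adjusted p = 0.456). Srm was 1 of 2 genes of the list that rose with shRNA2, and with the dimmest probe set of each gene only 1 rose. The shRNA2 call was lost when any 1 shRNA array was left out (limma adjusted p = 0.0939 to 0.332), with array weights (0.101), with an intensity trend (0.0504) and without the dimmer 50% of genes (0.0515). It held without either empty-vector array.

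**Figure D1:**
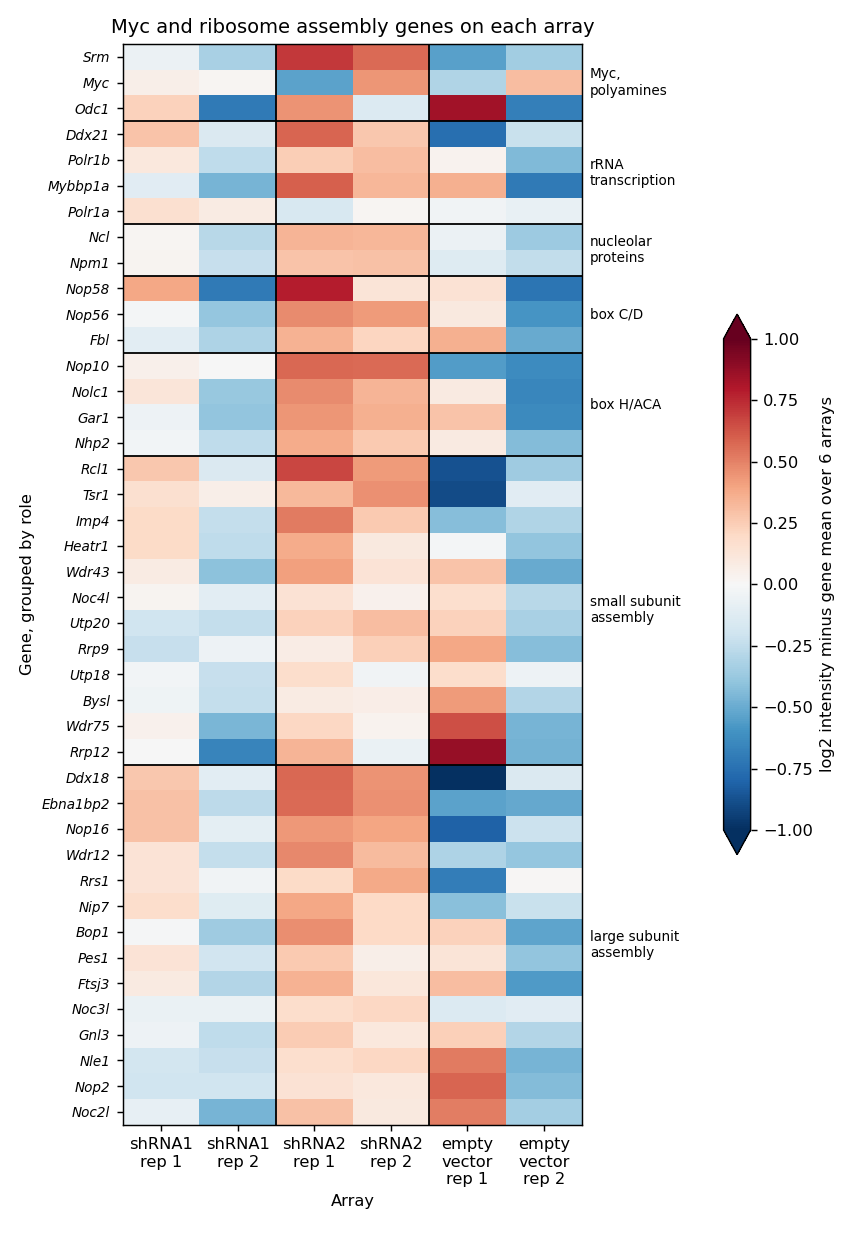
Log2 intensity of the 42 genes on each of the 6 arrays, as the difference from each gene's mean over the arrays, with genes grouped by role (rows) and arrays as columns. The median gene stood at 0.045 and -0.24 on the shRNA1 arrays, 0.35 and 0.25 on the shRNA2 arrays, and 0.096 and -0.39 on the empty-vector arrays.

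The 4 genes for transcription of ribosomal DNA all had positive differences for both shRNAs, from 0.077 to 0.74, and none rose. Polr1a, the largest subunit of RNA polymerase I, had 7.43 and 7.36 with shRNA1 and 7.11 and 7.30 with shRNA2, against 7.24 and 7.20 with the empty vector. It was the only gene of the list with both shRNA1 arrays above both shRNA2 arrays (0.19 ± 0.15 for shRNA1 minus shRNA2, against 17.7% of all genes in that order without overlap). Its other 2 probe sets gave the opposite sign, down to -0.27.

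Mybbp1a, a nucleolar Myb-binding protein that represses ribosomal DNA, had 9.95 and 9.60 with shRNA1 and 10.66 and 10.40 with shRNA2, against 10.42 and 9.36 with the empty vector. Here the empty-vector arrays were 1.06 apart and bracketed most shRNA arrays, and the difference was 0.26 ± 0.31 (adjusted p = 0.747). The other probe set of Mybbp1a gave 0.95, with an empty-vector gap of -0.18. Ddx21, an RNA helicase that acts on both polymerase I transcription and precursor processing, had 9.13 and 8.70 with shRNA1 and 9.43 and 9.12 with shRNA2, against 8.10 and 8.63 with the empty vector. All 4 shRNA arrays were above both empty-vector arrays (0.74 ± 0.22, adjusted p = 0.190), while its other probe set gave -0.029. Polr1b, the second largest polymerase subunit, differed by 0.30 ± 0.19.

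Nucleolin and nucleophosmin, the abundant proteins Ncl and Npm1 of the nucleolus, showed the same order of groups. Ncl had 12.13 and 11.82 with shRNA1 and 12.44 and 12.44 with shRNA2, against 12.05 and 11.74 with the empty vector. Npm1 had 12.19 and 11.93 with shRNA1 and 12.45 and 12.45 with shRNA2, against 12.03 and 11.91 with the empty vector. For both genes the shRNA2 arrays were the highest and the shRNA1 arrays interleaved with the empty vector. The limma differences for both shRNAs were 0.31 ± 0.16 for Ncl (adjusted p = 0.408) and 0.28 ± 0.14 for Npm1 (adjusted p = 0.388). For Ncl, shRNA1 minus shRNA2 was -0.47 ± 0.19 (limma adjusted p = 0.999). Other probe sets gave 0.93, -0.025 and 0.11 for Ncl and 0.91 for Npm1, for both shRNAs against the empty vector.

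The box C/D snoRNPs guide methylation of ribosomal RNA. Fbl, fibrillarin, their methyltransferase, had 10.83 and 10.63 with shRNA1 and 11.28 and 11.15 with shRNA2, against 11.29 and 10.43 with the empty vector. Nop58, a core scaffold protein, had 10.05 and 8.95 with shRNA1 and 10.44 and 9.79 with shRNA2, against 9.81 and 8.93 with the empty vector. Neither passed the test (0.11 ± 0.25, adjusted p = 0.887 for Fbl, and 0.44 ± 0.41, adjusted p = 0.656 for Nop58), and in both the empty-vector arrays were further apart than that. Nop56, the partner of Nop58, differed by 0.37 ± 0.23, and shRNA1 minus shRNA2 was -0.65 ± 0.27. Second probe sets gave 0.39 for Fbl and 0.51 for Nop56, for both shRNAs against the empty vector.

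Nop10 was the only gene of the list that rose for both shRNAs together. It is a small core protein of the box H/ACA snoRNPs, which guide pseudouridine formation in ribosomal RNA and also hold telomerase RNA. Nop10 had 11.38 and 11.33 with shRNA1 and 11.91 and 11.90 with shRNA2, against 10.78 and 10.71 with the empty vector. The 3 groups did not overlap and replicates of a group were at most 0.072 apart. The rise was 1.85-fold for both shRNAs (0.89 ± 0.12, limma adjusted p = 0.0329, n = 4 and 2) and 2.24-fold for shRNA2 (1.16 ± 0.14, adjusted p = 0.0210). The shRNA2 call was lost when any 1 shRNA array was left out. With shRNA1 the difference was 0.61 ± 0.14 (adjusted p = 0.225), and shRNA1 minus shRNA2 was -0.55 ± 0.14 (adjusted p = 0.667). A second probe set of Nop10 gave 1.32 for both shRNAs (adjusted p = 0.0581), and there the empty-vector arrays differed by -0.58. The call for both shRNAs was lost when any 1 shRNA array was left out, at adjusted p from 0.114 to 0.190, and with array weights (0.147), and it held without either empty-vector array (0.0240 without replicate 1 and 0.00867 without replicate 2).

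The promoter of Nop10 is printed because it is the gene that passed. It holds no CACGTG, and its CACGCG, in capitals, begins 25 bases after the gene's start. The stretch is chr2:112261676-112261955 of GRCm38.p6, plus strand, from 250 bases before to 30 bases after the start.
Nop10: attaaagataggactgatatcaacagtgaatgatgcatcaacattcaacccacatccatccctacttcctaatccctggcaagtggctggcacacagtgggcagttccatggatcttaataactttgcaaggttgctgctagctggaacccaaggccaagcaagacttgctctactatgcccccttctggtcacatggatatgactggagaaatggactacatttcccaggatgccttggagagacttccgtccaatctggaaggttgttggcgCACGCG

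The other H/ACA genes did not pass. Nhp2, another core protein, had 10.75 and 10.53 with shRNA1 and 11.16 and 11.05 with shRNA2, against 10.88 and 10.35 with the empty vector. Empty-vector replicate 1 thus lay between the shRNA groups (0.26 ± 0.19, adjusted p = 0.569). On its other probe set both empty-vector arrays, at 8.89 and 9.58, lay below all shRNA arrays, with a difference of 0.93. Gar1, a core protein, and Nolc1, a chaperone of snoRNPs, differed by 0.26 ± 0.28 and 0.42 ± 0.26. The other probe sets of Nolc1 gave 0.79 and 0.040.

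**Figure D2:**
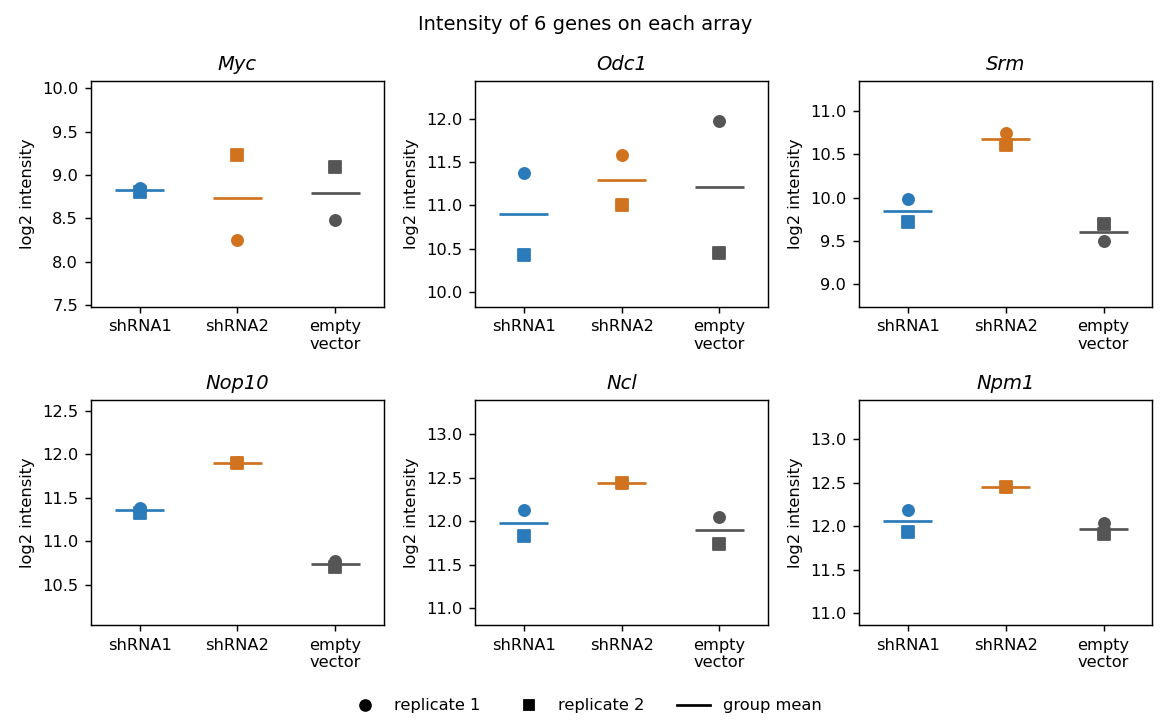
Log2 intensity of Myc, Odc1, Srm, Nop10, Ncl and Npm1 on each array, with circles for replicate 1, squares for replicate 2 and a line at the group mean, and axes of equal height. The groups are separate for Nop10 and, narrowly, for Srm, and they overlap for Myc and Odc1. For Srm, Ncl and Npm1 the shRNA2 arrays are the highest.

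Small subunit assembly was represented by 12 genes, with a median difference of 0.076 for both shRNAs. None rose or fell, 8 had a positive difference (46.4% of all genes did), and 3 of these had an unadjusted p under 0.05 (7.88% of all genes). Rcl1, which in yeast takes part in cutting the precursor RNA, had the largest difference. It had 8.24 and 7.82 with shRNA1 and 8.63 and 8.39 with shRNA2, against 7.09 and 7.61 with the empty vector. All 4 shRNA arrays were above both empty-vector arrays (0.92 ± 0.22, adjusted p = 0.110). Rrp12, an export factor, lay at the other end, with 6.62 and 5.96 with shRNA1 and 6.96 and 6.56 with shRNA2, against 7.49 and 6.15 with the empty vector. Its control pair was 1.35 apart, and the difference for both shRNAs was -0.30 ± 0.41 (limma adjusted p = 0.786). Utp18, a scaffold of the early small-subunit particle, had 9.33 and 9.12 with shRNA1 and 9.53 and 9.32 with shRNA2, against 9.53 and 9.30 with the empty vector, with no separation (-0.090 ± 0.15, adjusted p = 0.834). The early-particle proteins Heatr1, Wdr43, Wdr75 and Utp20 differed by -0.14 to 0.31, and Rrp9 and Imp4 of the U3 snoRNP by 0.026 ± 0.25 and 0.55 ± 0.18. Tsr1, Bysl and Noc4l, factors of later small-subunit particles, differed by 0.75 ± 0.23, -0.098 ± 0.22 and 0.082 ± 0.17.

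Large subunit assembly was represented by 14 genes, with a median of 0.21, 11 positive differences (46.4% of all genes) and 5 of these with an unadjusted p under 0.05 (7.88% of all genes). None passed adjustment. Ebna1bp2, whose yeast counterpart acts in early large-subunit particles, had 9.37 and 8.81 with shRNA1 and 9.64 and 9.53 with shRNA2, against 8.54 and 8.56 with the empty vector. Nop16, a nucleolar protein known as a Myc target, had 8.42 and 8.03 with shRNA1 and 8.56 and 8.53 with shRNA2, against 7.32 and 7.92 with the empty vector. Ddx18, a helicase of the DEAD-box family, had 8.84 and 8.46 with shRNA1 and 9.14 and 9.02 with shRNA2, against 7.53 and 8.42 with the empty vector. In all 3 genes the shRNA arrays were above both empty-vector arrays, with differences of 0.78 ± 0.19 for Ebna1bp2, 0.76 ± 0.22 for Nop16 and 0.89 ± 0.27 for Ddx18 (adjusted p = 0.114, 0.164 and 0.194). Their other probe sets gave smaller differences, 0.12 for Ebna1bp2, -0.022 for Nop16, and 0.30 and 0.16 for Ddx18. Nop16 and Ddx18 hung on the control array used: the adjusted p was 0.229 and 0.256 without empty-vector replicate 1, and 0.0129 and 0.00723 without replicate 2, which leaves the array that stood apart as the sole control.

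The most intense gene of this group, Gnl3, and the one with the most negative difference, Noc2l, overlapped the control pair. Gnl3, nucleostemin, a nucleolar GTP-binding protein, had 9.69 and 9.49 with shRNA1 and 10.0012 and 9.85 with shRNA2, against 9.98 and 9.45 with the empty vector (0.045 ± 0.19, adjusted p = 0.940). Noc2l, part of a complex that moves with pre-ribosomes, had 8.46 and 8.08 with shRNA1 and 8.84 and 8.65 with shRNA2, against 9.06 and 8.21 with the empty vector (-0.13 ± 0.27, adjusted p = 0.876). Its partner Noc3l differed by 0.19 ± 0.12. Pes1, Bop1 and Wdr12, which form the PeBoW complex, differed by 0.20 ± 0.20, 0.23 ± 0.25 and 0.52 ± 0.16. The RNA methyltransferases Nop2 and Ftsj3 differed by -0.11 ± 0.28 and 0.19 ± 0.28, and Nle1, Nip7 and Rrs1, further assembly factors, by -0.036 ± 0.28, 0.48 ± 0.16 and 0.50 ± 0.22.

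Counted together against the empty vector, the list leaned upward with few calls. For both shRNAs, 1 of 42 genes rose (Nop10), against 0.734% of all genes, and none fell, against 1.4%. An unadjusted p under 0.05 with a positive difference was met by 11 genes (26.2%), against 7.88% of all genes, and by none with a negative difference, against 8.84%. In 12 genes (28.6%) all 4 shRNA arrays lay above both empty-vector arrays, against 11.5% of all genes. These were Ddx18, Ddx21, Ebna1bp2, Imp4, Nip7, Noc3l, Nop10, Nop16, Rcl1, Srm, Tsr1 and Wdr12. Of the 2 empty-vector arrays, replicate 1, which stood apart, was the lower in all of these but Nop10 and Wdr12. The difference was positive in 33 of 42 (46.4% of all genes), with a median of 0.26 (-0.023 over all genes).

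The shRNAs contributed unequally to this lean, and the comparisons below share the empty-vector arrays. With shRNA1 no gene of the list rose or fell by limma (0.0968% and 0.137% of all genes did), 3 had an unadjusted p under 0.05 and a positive difference (Ebna1bp2, Nop10 and Rcl1, against 3.86% of all genes), and the median was 0.052 with 26 of 42 positive (44.8% of all genes). With shRNA2, Nop10 and Srm rose (2 of 42, against 0.88% of all genes) and none fell (1.95%). There, 14 genes had an unadjusted p under 0.05 (8.59%), and the median was 0.48 with 39 of 42 positive (48.4%). Groups did not overlap, with shRNA above, in 13 genes for shRNA1 (15.2% of all genes) and in 21 for shRNA2 (21.6%).

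**Figure D3:**
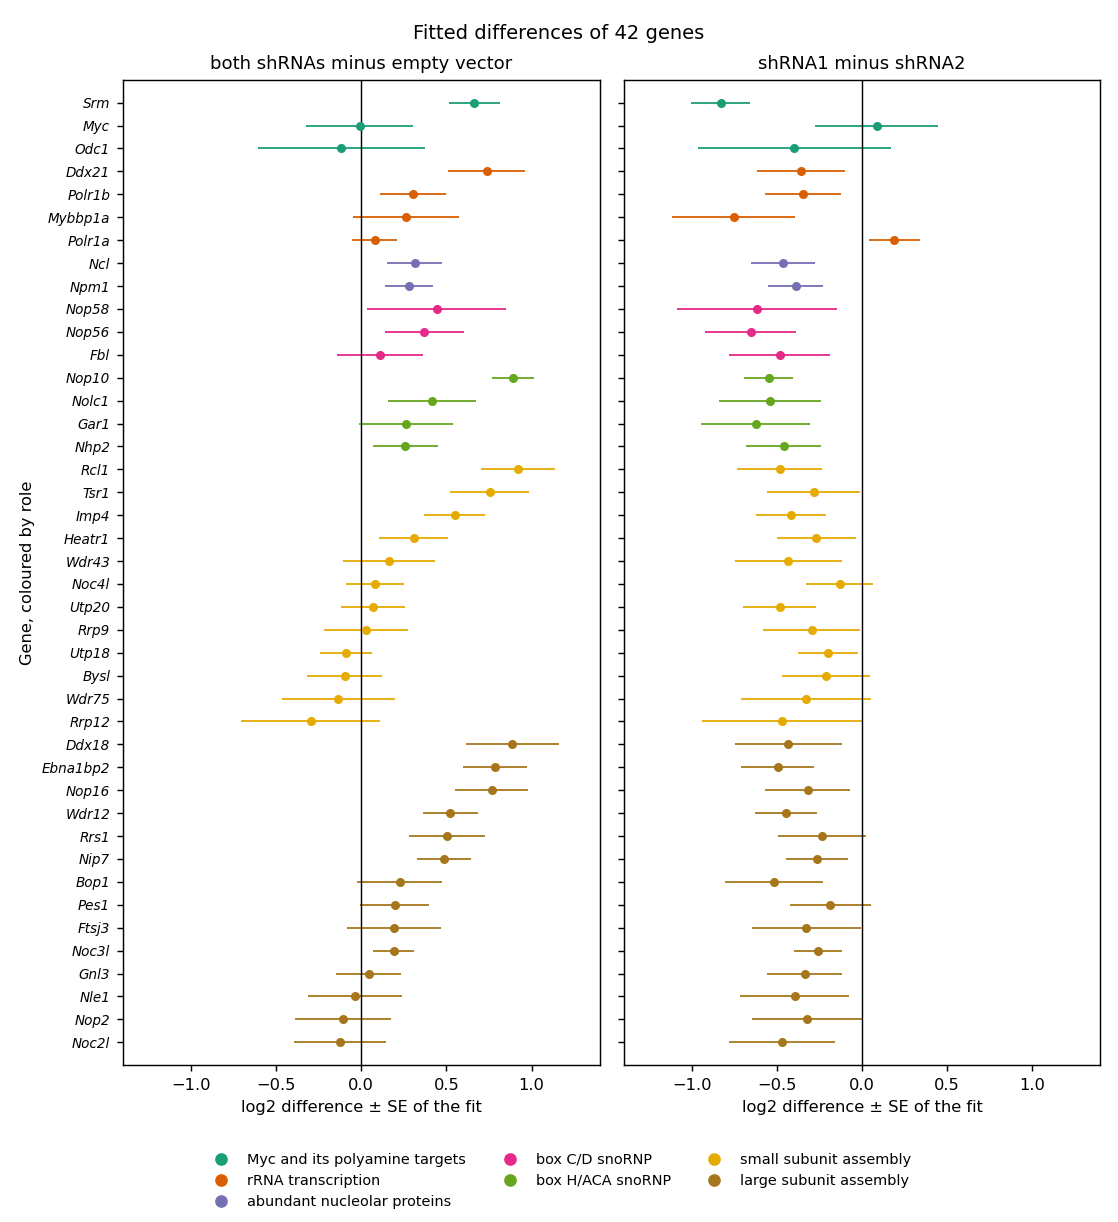
Fitted log2 differences ± SE of the 42 genes, coloured by role, for both shRNAs minus empty vector (left) and shRNA1 minus shRNA2 (right). On the left 33 points are above 0, and on the right 40 lie below 0.

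Between the hairpins the direction was nearly uniform, while no gene passed the test. shRNA2 was higher than shRNA1 in 40 of 42 genes, all but Myc and Polr1a, against 55.0% of all genes. The median of shRNA1 minus shRNA2 was -0.40 over the list and -0.021 over all genes. All 12 small-subunit and all 14 large-subunit genes, all 7 snoRNP genes, and Ncl and Npm1 were on this side. In 32 genes (76.2%) both shRNA1 arrays lay below both shRNA2 arrays, against 23.9% of all genes. By limma 0 of the 42 and 0 of the 12393 genes passed adjustment in either direction (0.0%). At an unadjusted p under 0.05 stood 4 genes of the list (Srm, Nop10, Ncl and Nop56), all lower with shRNA1, against 1.63% of all genes. With replicate number as a block this count was 11, against 2.4% of all genes, and again none passed adjustment. The test shares its error with the empty vector. In a fit of the 4 shRNA arrays alone, chosen after the data were seen, 19 genes of the list were lower with shRNA1 at an unadjusted p under 0.05, against 5.64% of all genes, and none passed adjustment.

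The order held within each replicate number. Among replicates 1, shRNA2 was the higher array in 40 of 42 genes (54.2% of all genes), with a median of -0.31 for shRNA1 minus shRNA2. Among replicates 2 it was the higher in 41 of 42 (54.0%), with a median of -0.52. Replicates also differed among themselves across the list: shRNA1 replicate 1 was above replicate 2 in 41 of 42 genes (40.5% of all genes), with a median gap of 0.34, and shRNA2 replicate 1 in 32 of 42 (42.5%), with a median gap of 0.13. The genes thus moved together from array to array within a group as well as between groups, so they are not independent replicates of a difference.

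The comparison with the control depended on which empty-vector array was used. Replicate 2 was the lowest of the 6 arrays in 25 genes (21.5% of all genes), and replicate 1 was the lowest in 11 (24.4%) and the highest in 10 (35.5%). Replicate 1 minus replicate 2 ran from -0.89 to 1.52, with a median of 0.50. Against replicate 2 alone, both shRNAs together were higher in 41 of 42 genes (53.1% of all genes), with a median of 0.47. Against replicate 1 alone they were higher in 22 (42.4%), with a median of 0.014. Calls moved with it: without empty-vector replicate 1, 1 gene rose for both shRNAs (1.97% of all genes) and 7 for shRNA2 (3.48%). Without replicate 2, 8 rose (Srm, Ddx21, Nop10, Rcl1, Tsr1, Nop16, Rrs1 and Ddx18) and 2 fell (Nop2 and Nle1) for both shRNAs (13.1% and 12.1% of all genes), 6 rose and 2 fell for shRNA1 (11.1% and 9.34%), and 10 rose for shRNA2 (12.5%). In those fits the lone control array is assumed to vary like the other groups. In 10 genes the empty-vector arrays were less than 0.25 apart, a cut chosen with the values in view. Their difference for both shRNAs had a median of 0.50 (-0.090 to 0.89) and was positive in 9, all but Utp18. The same cut was not applied to all genes, so no share stands beside these values.

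Probe sets of the same gene differed more in the empty-vector gap than in the difference between the hairpins. The gap sets 1 array against 1, and the hairpin difference sets means of 2 arrays against each other, so the measures are unlike. The counts of sign changes below are not given for all genes. The 42 genes had 72 probe sets, and 23 genes had 2 or more. Across the probe sets of a gene, empty-vector replicate 1 minus replicate 2 changed sign in 13 of these 23 genes, and the difference for both shRNAs in 8. The sign of shRNA1 minus shRNA2 changed in 3 (Ebna1bp2, Heatr1 and Polr1a). The median range across probe sets of a gene was 0.78 for the empty-vector gap, 0.54 for both shRNAs minus empty vector, and 0.097 for shRNA1 minus shRNA2. Ncl, with 4 probe sets, had empty-vector gaps from -0.94 to 1.57, while shRNA1 minus shRNA2 ran from -0.77 to -0.47. Over all 72 probe sets, shRNA2 was the higher in 68, against 55.1% of the 20380 probe sets used.

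**Figure D4:**
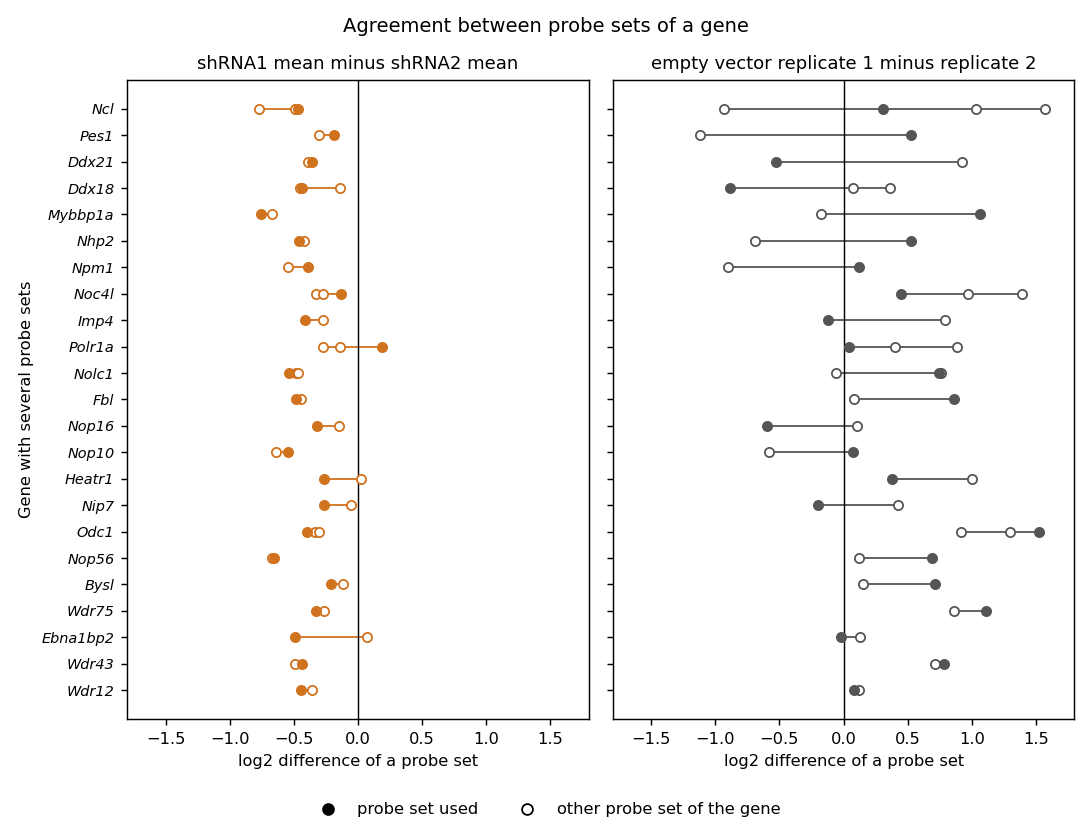
Log2 differences of each probe set for the 23 genes with 2 or more, shRNA1 minus shRNA2 (left) and empty-vector replicate 1 minus replicate 2 (right), with filled points for the probe set used and open points for the others. Probe sets of a gene lie close together on the left and spread widely on the right, as for Ncl, from -0.94 to 1.57.

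Neighbouring gene lists were read in the same way. Of 98 other ribosome assembly genes none passed for both shRNAs, 17 had a positive difference at an unadjusted p under 0.05 (7.88% of all genes), and 65 were positive (46.4%), with a median of 0.14. The smallest p belonged to Ruvbl2 (0.66 ± 0.13, adjusted p = 0.0717) and Ruvbl1 (0.68 ± 0.14, adjusted p = 0.0863), paired ATPases that help assemble snoRNPs, and to Nsa2, a large-subunit factor (-0.49 ± 0.13, adjusted p = 0.135). Ruvbl1 and Ruvbl2 were the 2 of 98 that rose with shRNA2 (1.02 and 0.98, adjusted p = 0.0387 and 0.0341; 0.88% of all genes rose), and both calls were lost when any 1 shRNA array was left out (0.0892 to 0.312), with array weights (0.107 and 0.0855) and with an intensity trend (0.0608 and 0.0565). The call of Ruvbl1 was also lost with the dimmer 50% of genes left out (0.0517) and with the dimmest probe set of each gene (0.0519). Between the shRNAs, 88 of the 98 were lower with shRNA1 (55.0% of all genes), with a median of -0.18.

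The 43 ribosomal protein genes, the structural parts of the ribosome, shared the direction with smaller differences between the hairpins. For both shRNAs 32 of 43 were positive, against 46.4% of all genes, with a median of 0.19. With shRNA1 38 of 43 were lower than with shRNA2, against 55.0% of all genes, with a median of -0.057. None passed, and Rpl6, Rpl10a and Rpl7a, with the smallest p, differed by 0.47 ± 0.18, 0.43 ± 0.17 and 0.49 ± 0.20 (adjusted p = 0.270, 0.283 and 0.303). Their lowest array was empty-vector replicate 1, with a median of -0.24 from each gene's mean.

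Of 12 genes of the Myc network none passed for both shRNAs. Mycn, a relative of Myc used by early progenitors, had 5.91 and 7.47 with shRNA1 and 5.31 and 6.69 with shRNA2, against 8.08 and 8.85 with the empty vector. Its 4 shRNA arrays lay below both empty-vector arrays (-2.12 ± 0.57, adjusted p = 0.152). Mlx and Mxi1, partners in the wider network, differed by 0.36 ± 0.13 and 0.25 ± 0.17 (adjusted p = 0.260 and 0.520).

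Among 41 other Myc targets, 1 rose and 1 fell for both shRNAs, against 0.734% and 1.4% of all genes. The difference was positive in 31 of the 41 (46.4% of all genes), with a median of 0.33. At an unadjusted p under 0.05, 15 had a positive difference and 3 a negative one (7.88% and 8.84% of all genes). Shmt1, an enzyme of one-carbon metabolism, had 7.80 and 7.72 with shRNA1 and 7.89 and 8.12 with shRNA2, against 7.07 and 7.04 with the empty vector (0.82 ± 0.14, adjusted p = 0.0476). Slc7a5, a transporter of large neutral amino acids, had 9.13 and 9.41 with shRNA1 and 9.70 and 9.38 with shRNA2, against 11.41 and 10.94 with the empty vector (-1.77 ± 0.20, adjusted p = 0.0199). Both genes separated the shRNA arrays from the controls without overlap, in opposite directions. Both calls were lost when any 1 shRNA array was left out (adjusted p = 0.0676 to 0.224) and with array weights (0.234 for Shmt1 and 0.0764 for Slc7a5). The call of Shmt1 was also lost with the replicate block (0.0618), an intensity trend (0.0705), the dimmest 25% or dimmer 50% of genes left out (0.0554 and 0.066), and the mean or the dimmest of its probe sets (0.0739 and 0.114). Between the shRNAs, 39 of the 41 were lower with shRNA1 (55.0% of all genes), with a median of -0.40, and 11 of these had an unadjusted p under 0.05 (1.63% of all genes).

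Markers of other states moved beside these genes. The 9 proliferation markers measured, not counted among the cell types, had medians, from each gene's mean, of 0.20 and -0.21 with shRNA1 and 0.38 and 0.46 with shRNA2, against 0.25 and -1.24 with the empty vector. All 9 were lower with shRNA1 than with shRNA2 (median -0.46), against 55.0% of all genes. All 9 had positive differences for both shRNAs against the empty vector (median 0.72, 46.4% of all genes), and 1 rose (0.734% of all genes). The 8 macrophage markers ran the other way between the hairpins, with 7 higher with shRNA1 (median 0.83, -0.33 to 2.24), against 45.0% of all genes. All 9 neutrophil markers were above the empty vector (median 2.94, 46.4% of all genes), and 5 rose (0.734% of all genes). Between the hairpins 8 of them were lower with shRNA1 (55.0% of all genes). Of these, 3 had an unadjusted p under 0.05 (1.63% of all genes), though none passed adjustment. The early granule genes Mpo, Elane and Prtn3 and the progenitor marker Ms4a3, picked out after their values were seen, differed there by -1.71, -1.38, -1.37 and -1.31, and the other 5 by -0.063 to 0.30. Erythroid markers stood at 1.19 on empty-vector replicate 1, against -0.41 to -0.13 on the other 5 arrays. All 8 mast cell and basophil markers were lower than in the empty vector (median -0.98, 53.6% of all genes), and 3 fell (1.4% of all genes). The part of these cell states in the results above was not tested.

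**Figure D5:**
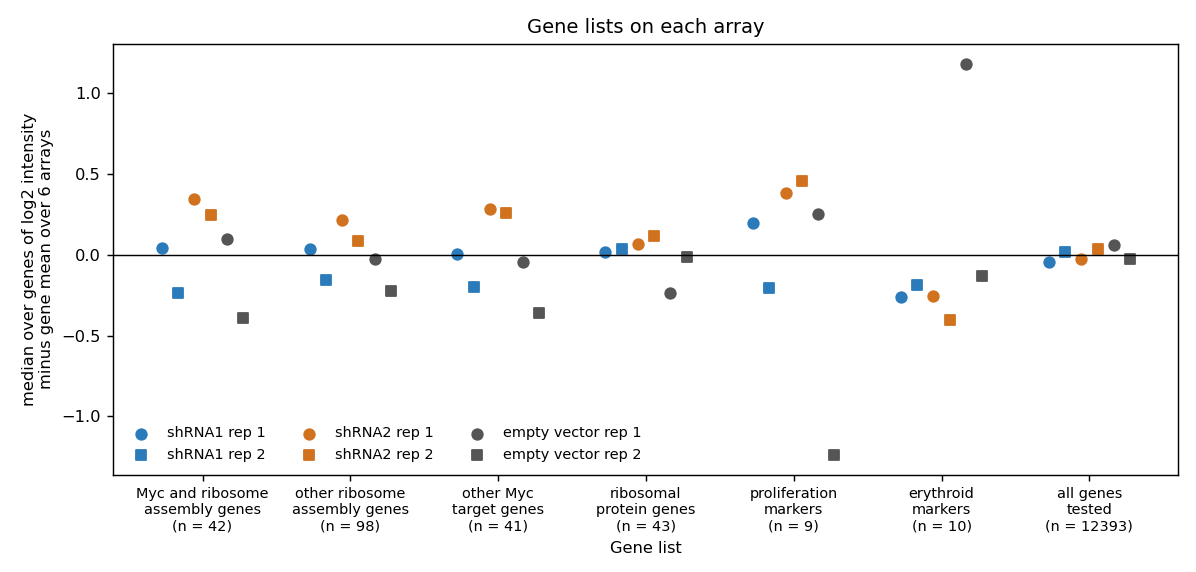
Median over the genes of each list of log2 intensity minus the gene's mean over 6 arrays, with circles for replicate 1 and squares for replicate 2 of each group. The 42 genes, the other assembly genes and the other Myc targets share the order of shRNA2 above shRNA1, proliferation markers reach -1.24 on empty-vector replicate 2, and all genes tested stay between -0.042 and 0.061.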

How the data were processed

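RNA was measured on 6 Affymetrix arrays, 2 per group, and the titles gave each array's group and replicate number. The authors deposited 1 intensity per probe set on a linear scale, made with RMA per the submitters' processing notes, for 22690 probe sets (4.96 to 20614.6). RMA settings were not given in the sources used here, and RMA hides changes in total RNA per cell. Log2 was taken with no pseudocount and no further normalization. Through the platform annotation, 20393 probe sets had 1 gene, 691 several and 1606 were not listed. After leaving out 64 control sets, 20380 were used for 12393 genes.

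Differences were tested two-sided with limma 3.58.1 (R 4.3.3; lmFit, contrasts.fit, eBayes) in 1 fit of the 3 groups (3 residual and 2.91 prior degrees of freedom), adjusted by Benjamini-Hochberg over all genes, and the procedure was checked on simulated data. The number of arrays limits the precision. Members, lists and the rule for named genes (Myc and its enzymes, members that passed, the smallest p, and the extremes and the most intense gene of each role) were chosen with earlier results of these data known. Over the 12393 genes, deviations of same-numbered arrays from their group means correlated at 0.199 (shRNA1 and empty vector), 0.148 (shRNA2 and empty vector) and 0.578 (shRNA1 and shRNA2), so the replicate block is printed where it changed a call or moved a count strongly; the labels do not say what the numbers share. Other alternatives were filters on dim genes, other probe sets, normalization, eBayes settings, array weights and leaving out each array. Python 3.11.15 with numpy 2.4.6, pandas 2.3.3 and, for figures, matplotlib 3.10.9 did the rest.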

Additional observations from a re-analysis of the deposited data

How the results depend on the processing

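Only 2 arrays per group and an unequal spread limit all calls. Of the member counts, that for both shRNAs (1) was 0 with array weights and with the dimmest probe set of a gene, an alternative chosen after seeing the data, and that for shRNA2 (2) was 1 with the dimmer 50% of genes left out, an intensity trend, array weights and the dimmest probe set. Leaving out 1 array gave 0 to 10 members for both shRNAs, 0 to 8 for shRNA1, 0 to 10 for shRNA2 and 0 between the shRNAs. The member median then ran from 0.014 to 0.47 for both shRNAs, -0.22 to 0.28 for shRNA1, 0.23 to 0.65 for shRNA2 and -0.57 to -0.23 for shRNA1 minus shRNA2, so that only the shRNA1 median changed sign. With the dimmest probe set the shRNA1 median was -0.033 and the shRNA2 median 0.29. Over all genes, calls for both shRNAs (264) were 113, 51 and 123 with the dimmer 50% left out, array weights and the dimmest probe set, and 3 to 3121 without 1 array. For shRNA1 (29) they were 3, 8 and 4 under the same settings, 17 with quantile normalization, 59 with an intensity trend, and 0 to 2534 without 1 array. For shRNA2 (351) they were 180, 160 and 189, and 0 to 2941 without 1 array. Between the shRNAs (0) they were 98 with array weights, 44 with the shRNA arrays alone, and 0 to 44 without 1 array. A group left with 1 array was assumed to vary like the others. The cause was not tested.

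With the replicate number as a block, the counts of members called were 1 for both shRNAs, 0 for shRNA1, 2 for shRNA2 and 0 between the shRNAs, the same as without it, and the block changed no call of a named member.

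Of the values of single members under the alternatives, 452 kept direction and side of the threshold, 18 lost and 6 gained a call, and 24 turned. These counts cover 31 differences of the named members under the alternatives, and not the whole list. Signs of single genes for both shRNAs turned without 1 array for Myc (-0.32 to 0.30), Odc1 (-0.88 to 0.64), Mybbp1a (-0.27 to 0.79), Fbl (-0.32 to 0.54), Nhp2 (-0.0049 to 0.52), Utp18 (-0.20 to 0.023), Rrp12 (-0.97 to 0.38), Gnl3 (-0.22 to 0.31) and Noc2l (-0.55 to 0.30). Myc also turned for shRNA1 (-0.27 to 0.34), shRNA2 (-0.54 to 0.44) and between the shRNAs (-0.40 to 0.57). Myc was 0.020 with arrays centred on their medians. With the dimmest probe set, Odc1 was 0.095, Nop16 -0.022 and Ddx21 -0.029, and Polr1a between the shRNAs was -0.14, and -0.074 with the mean of its probe sets. Background correction and a slide or scan block were not run, because the deposited values were already corrected and name no slide.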
